A study of Arabidopsis thaliana and Nicotiana benthamiana and Solanum lycopersicum with 20 samples.

Results

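The LHCA genes encode the chlorophyll-binding proteins that form the antenna of photosystem I. The data are peak lists from ChIP-seq, in which chromatin bound by an epitope-tagged transcription factor (TF) is pulled down and sequenced, for the TFs GLK1 and GLK2 in leaves. The series holds 20 libraries of 5 species with 2 biological replicates per TF, and 8 of them, from Arabidopsis and maize, were used here. Chosen by locus, the members are all 6 Arabidopsis LHCA genes, LHCA1 (AT3G54890), LHCA2 (AT3G61470), LHCA3 (AT1G61520), LHCA4 (AT3G47470), LHCA5 (AT1G45474) and LHCA6 (AT1G19150), of 27444 nuclear protein-coding genes. The other members are the 2 maize loci ZmLHCA3 and ZmLHCA1, given as positions at which GLK1 has a called peak in 1 replicate. The Arabidopsis groups are GLK1 and GLK2, each fused to GFP and overexpressed in transgenic plants that lack both endogenous genes (the glk1/glk2 double mutant), with an anti-GFP antibody. The maize groups are ZmGLK1 and ZmGLK2, each with a biotin tag under a 35S promoter in protoplasts of B73 leaves that keep their own GLKs, pulled down with streptavidin beads. The series text describes the expression as transient in all species, whereas the methods describe stable Arabidopsis lines. Expression of a tagged TF from a strong promoter sets its level and the cells it acts in, and the ages of the plants are not given in the sources used here.

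GLK1 and GLK2 are GARP-family TFs needed for chloroplast development and known as activators of nuclear genes for chlorophyll synthesis and light harvesting. LHCA1 to LHCA4 are the abundant antenna proteins, bound along one side of the photosystem I core as the pairs LHCA1-LHCA4 and LHCA2-LHCA3, and they pass excitation energy to it. LHCA5 and LHCA6 are scarce relatives that link photosystem I to the chloroplast NADH dehydrogenase-like complex.

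A summit is the position of highest enrichment in a called peak, and its value here is its enrichment, the fold change against the control that the authors' peak caller gave. A gene was given every summit from 1.5 kb upstream of its annotated start site to 500 bp inside it. The Arabidopsis lists held 15576 and 13934 summits for GLK1 and 22900 and 22143 for GLK2 (replicates 1 and 2). Their median fold change was 3.04 and 2.76 for GLK1 and 2.56 and 2.51 for GLK2, and the 100th strongest summit had 30.4 and 26.1 for GLK1 and 21.7 and 20.3 for GLK2. Read depth per library is not recorded in a peak list, and the study gives reads per sample as a range for a species, so a gene without a summit is one at which none passed the authors' threshold, not one shown to be unbound.

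The summits of LHCA1 to LHCA4 lay close to a G-box (CACGTG, a palindrome known as a binding site of bZIP and bHLH factors), and the stretches around it are shown because all 16 summit windows of these genes held it. The sequences below are from the RefSeq copy of the TAIR10 assembly, on the strand of the gene, 30 bases each, with the G-box in capitals. They span chr3:20341085-20341114 (LHCA1), chr3:22745551-22745580 (LHCA2), chr1:22699950-22699979 (LHCA3), chr3:17495104-17495133 (LHCA4), chr1:17179481-17179510 (LHCA5) and chr1:6612668-6612697 (LHCA6). The genes LHCA1 and LHCA4 are on the minus strand and the other 4 on the plus strand.
LHCA1: atatcgagaagaCACGTGgcccaatgaaaa
LHCA2: ggacgaagttgcCACGTGccaatgagttga
LHCA3: aacttatattgcCACGTGgacagatatagt
LHCA4: ccatttaattgaCACGTGtaacaacaatgg
LHCA5: tgttgaacgtgcCACGTGgctacctggact
LHCA6: catcgaaccgtaCACGTGtcacgtaacact

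The GLK motif, RGATTYY (R for A or G, Y for C or T), is shown at its match nearest to a summit, in capitals, for all members but LHCA6, where the nearest match had its centre 76 to 165 bp from the summits. The stretches are chr3:20341027-20341056 (LHCA1), chr3:22745617-22745646 (LHCA2), chr1:22699881-22699910 (LHCA3) and chr1:17179420-17179449 (LHCA5). For LHCA4, whose summits lay before the start site, the 150 bases that end at the base before the start site are given, chr3:17495034-17495183, with the G-box and the GLK motif matches in capitals.
LHCA1 GLK motif: caatctggttttAGATTCTcatctcacaaa
LHCA2 GLK motif: atcagataagcAGAATCTgattttgtcacc
LHCA3 GLK motif: catctttgtaaAGATTTTttgttcgtgtgt
LHCA5 GLK motif: tcatcacaagaAGAATCTcatccgtcaaag
LHCA4 promoter: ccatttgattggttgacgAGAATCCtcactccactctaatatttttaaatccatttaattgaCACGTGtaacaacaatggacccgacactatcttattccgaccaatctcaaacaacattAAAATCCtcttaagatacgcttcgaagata

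The first question was whether the LHCA genes had GLK summits and how strong these were. LHCA1, LHCA2, LHCA3 and LHCA4 had a summit in all 4 Arabidopsis libraries, and LHCA5 and LHCA6 did not. A summit in all 4 libraries was found at 6313 of the 27444 genes (23%). In each of the 4 lists the highest summit of each of LHCA1 to LHCA4 was among the 100 strongest, a limit chosen after their ranks had been seen, and 84 genes (0.306%) met it. The median over all 6 genes, with an absent summit counted as the lowest, lay above 99.7% and 99.6% of the summits in the GLK1 lists and above 99.9% of those in both GLK2 lists. Of all genes, 14396 (52.5%) had no summit in any of the 4 lists.

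LHCA4 (chromosome 3, 17493343-17495033) carried the strongest summit of the family. Its fold change was 147 and 102 with GLK1 and 74.6 and 70.2 with GLK2. These values ranked 3 and 8 in the GLK1 lists and 6 and 7 in the GLK2 lists. LHCA4 stood above the other 5 members in every library, at 2.89 and 2.59 times the next highest in the GLK1 libraries and 1.44 and 1.55 times in the GLK2 libraries.

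LHCA1 (chromosome 3, 20339504-20341176), the partner of LHCA4 in the antenna, had a fold change of 48.9 and 39.3 with GLK1 and 42.2 and 40.9 with GLK2. Its ranks were 55 in both GLK1 lists, and 33 and 30 in the GLK2 lists. Both GLK2 fold changes fell between those of the GLK1 replicates, but by rank both GLK2 summits stood higher. Fold changes of different lists are not on a common scale, and the lists differ in length.

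LHCA2 (chromosome 3, 22745514-22747444) had a fold change of 50.9 and 37.2 with GLK1 and 49.2 and 42.9 with GLK2, at ranks 46 and 60 with GLK1 and 23 and 28 with GLK2. LHCA3 (chromosome 1, 22699715-22701412), its partner, had 48.9 and 38.6 with GLK1 and 51.9 and 45.4 with GLK2, at ranks 54 and 58 with GLK1 and 22 and 23 with GLK2. The fold changes of the TFs overlapped at both genes while their ranks did not, and the fold change of replicate 1 was above that of replicate 2 for either TF. LHCA1, LHCA2 and LHCA3 were close to each other within a library, with the highest of them 1.04 and 1.05 times the lowest in the GLK1 libraries and 1.23 and 1.11 times in the GLK2 libraries. Their order was LHCA3, LHCA2, LHCA1 in both GLK2 libraries and differed between the GLK1 replicates.

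**Figure D1:**
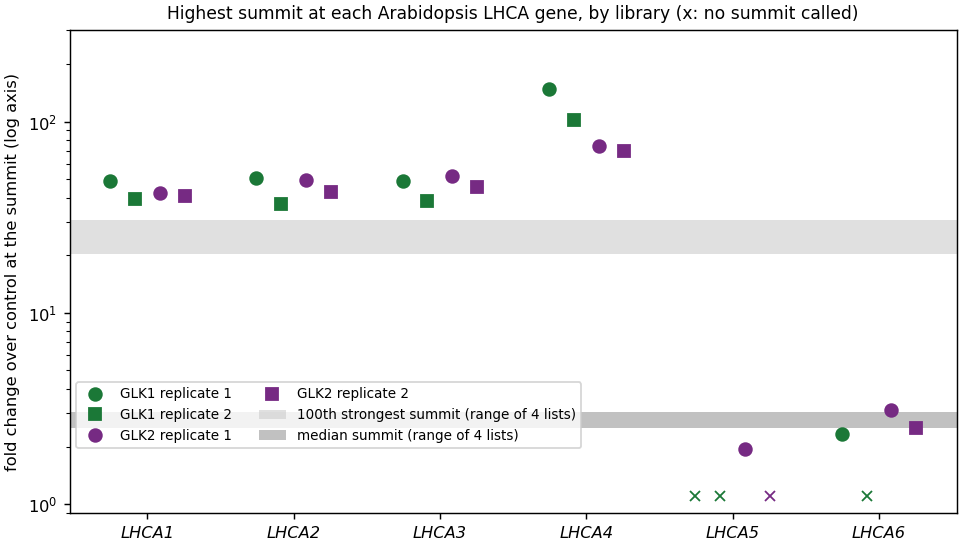
Enrichment (fold change over control) at the highest summit of each Arabidopsis LHCA gene (log axis), 1 point per library, with crosses for libraries without a called summit and grey bands for the range over the 4 lists of the 100th strongest and the median summit. LHCA1 to LHCA4 lie above the upper band in all 4 libraries with LHCA4 highest (147 and 102 with GLK1, 74.6 and 70.2 with GLK2), and LHCA5 and LHCA6 lie near or below the median summit or have none.

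LHCA6 (chromosome 1, 6612630-6613972) had a weak summit in 3 libraries. Its fold change was 2.33 in GLK1 replicate 1, with none called in GLK1 replicate 2, and 3.10 and 2.51 in the GLK2 libraries. The ranks were 12794 of 15576 for GLK1, and 7208 of 22900 and 10989 of 22143 for GLK2, so that 17.9% of the GLK1 summits and 68.5% and 50.4% of the GLK2 summits were weaker. LHCA6 has a head-to-head neighbour on the minus strand, AT1G19140, and the 3 summits lay 185 bp (GLK1), 96 bp and 111 bp (GLK2) upstream of that gene's start site, so they cannot be assigned to 1 of the 2 genes.

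LHCA5 (chromosome 1, 17179250-17180806) had a single summit in 1 library, GLK2 replicate 1, with a fold change of 1.94 and rank 19977 of 22900. It lay 194 bp inside the gene and 91 bp past the coding start, whereas the other members' highest summits lay before theirs. The scarce antenna proteins were thus also the ones without strong summits, and the 2 sets of values did not overlap, at 37.2 or more for LHCA1 to LHCA4 against 3.10 or less for LHCA5 and LHCA6.

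The position of the highest summit was reproducible at the 4 strongly enriched genes. At LHCA1 it lay 96 and 94 bp inside the annotated start with GLK1, and 99 and 88 bp inside with GLK2. At LHCA3 it lay 281 and 284 bp inside with GLK1, and 282 and 278 bp inside with GLK2. At LHCA2 it lay 79 and 82 bp inside with GLK1, and 109 and 101 bp inside with GLK2. These 3 genes had their summits in an annotated exon, before the coding sequence, between 113 and 166 bp upstream of the coding start. LHCA1 and LHCA3 have further annotated starts, 73 bp inside the first one for LHCA1 and 178 and 358 bp inside for LHCA3, so what counts as promoter there depends on the transcript.

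LHCA4 differed from these in having its summit before the start site, 78 and 88 bp upstream with GLK1, and 41 and 45 bp upstream with GLK2. The mean GLK1 summit was 40.0 bp farther upstream than the mean GLK2 summit, while replicates lay 10 bp apart for GLK1 and 4 bp for GLK2. At LHCA2 the GLK1 summit was 24.5 bp farther upstream, with replicates 3 bp apart for GLK1 and 8 bp for GLK2. At LHCA1 and LHCA3 the TFs lay 1.5 and 2.5 bp apart, within the replicate distances. Over the 8827 regions with a summit in all 4 libraries the median distance between the TFs was 27 bp, against 39 bp between GLK1 replicates and 33 bp between GLK2 replicates. Summits of weak regions scatter more, so the 120 regions with a geometric mean fold change of at least 20, a limit chosen after seeing the data, are the closer background. There the median distance between the TFs was 5.5 bp, a distance as large as that of LHCA4 was found in 3 of the 120 regions (LHCA4 included) and one as large as that of LHCA2 in 7 (LHCA2 and LHCA4 included).

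**Figure D2:**
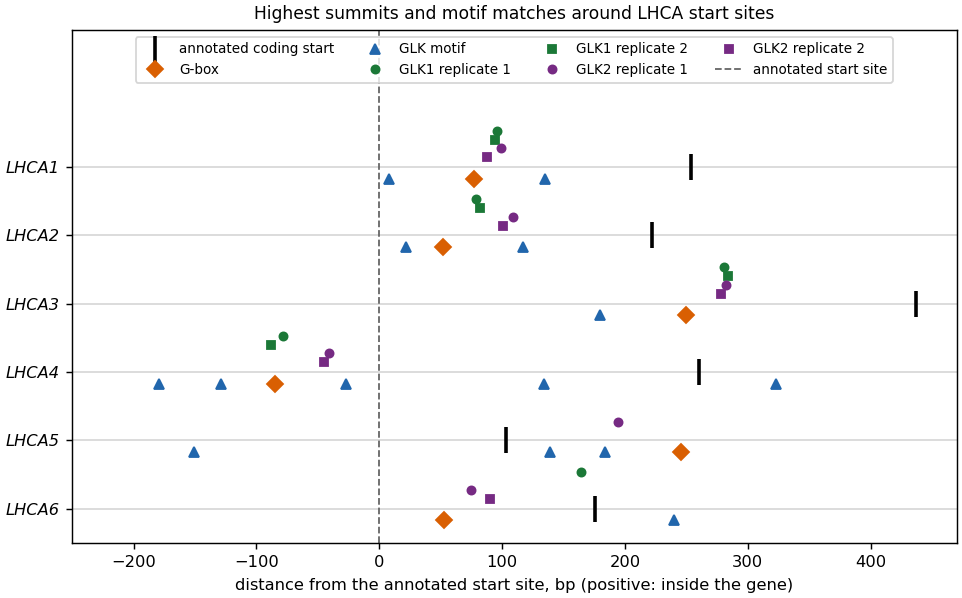
Distance of each highest summit from the annotated start site in bp (1 point per library, positive inside the gene), with the G-box, the matches of the GLK motif and the annotated coding start of each gene. The summits of LHCA1, LHCA2 and LHCA3 lie between the start site and the coding start, and those of LHCA4 lie upstream with the GLK1 pair 40.0 bp from the GLK2 pair. A G-box has its centre within 57.5 bp of each summit of LHCA1 to LHCA4.

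Further summits in the gene windows were weak. LHCA2 had a reproducible upstream one, 966 and 960 bp before the start with GLK1, and 943 and 976 bp with GLK2. Its fold change was 6.39 and 5.26 with GLK1 and 4.57 and 3.93 with GLK2, above the median of each list. LHCA4 had one 1147 and 1156 bp upstream with GLK1, at 2.88 and 2.23, and 1190 and 1234 bp upstream with GLK2, at 2.50 and 2.28, all below the median summit of their lists. LHCA1 had 2 in each GLK2 list between 978 and 1251 bp upstream, with fold changes from 1.77 to 3.06, and none in the GLK1 lists, and LHCA3 had none. LHCA6 had a further one in GLK2 replicate 2, 106 bp upstream with a fold change of 2.46. In all, 33 summits fell in the 6 gene windows over the 4 libraries. The only other gene with a start site within 1.5 kb of a strong member summit was CXIP1 (AT3G54900), beyond LHCA1, whose start lay 1376 to 1387 bp from it. The further GLK2 summits of LHCA1 lay closer to the CXIP1 start site than to that of LHCA1, so they cannot be assigned to LHCA1 alone.

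The summit windows were then searched for motifs on both strands, in the 150 bp that the lists give for each summit. RGATTYY was found in 12 of the 16 windows of LHCA1 to LHCA4, in all libraries for LHCA1, LHCA2 and LHCA4 and in none for LHCA3. Over all summit windows of a list it was found in 26.1% and 28.3% with GLK1 and in 27.4% and 28.0% with GLK2, over the 100 strongest windows in 67% in both GLK1 lists and 68% in both GLK2 lists, and over the 150 bp before the start site of all genes in 23.9%. At LHCA3 the nearest match, the one printed, had its centre 98 to 104 bp from the summits, outside the window. With LHCA5 and LHCA6 included, 13 of 20 windows held a match. In LHCA1 the nearer match read along the gene with its centre 36 to 47 bp from the summits, and in LHCA2 on the other strand at 8 to 38 bp. In LHCA4 matches stood to either side of the summits, and the one nearer the start had its centre 14 to 61 bp away. In windows of 300 bp RGATTYY was found in all 16 windows of LHCA1 to LHCA4 and in 18 of 20 over all members, against 43.5% and 45.7% of all windows with GLK1 and 45.2% and 45.4% with GLK2. The looser form RGATT with any 2 bases after it was in the same 16 windows at 150 bp and in 17 of 20, against 59.96% and 61.5% of all windows with GLK1 and 61.9% and 62.1% with GLK2. GATTCC, a stricter form of the motif, was in none of the 20 windows, against 7.16% and 7.03% of all windows with GLK1 and 7.43% and 7.36% with GLK2. Among the 100 strongest windows RGATTYY at 300 bp was in 77% in both GLK1 lists, and in 78% and 77% with GLK2. The looser form was there in 87% and 86% with GLK1 and 85% and 86% with GLK2. For GATTCC the share was 10% in both GLK1 lists and 9% in both GLK2 lists.

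The G-box, searched for after the summit positions had been seen, was in all 16 windows of LHCA1 to LHCA4. It was in 12.1% and 11.6% of all GLK1 windows and in 9.49% and 9.47% of all GLK2 windows. Among the 100 strongest windows of a list it was in 35% and 36% with GLK1 and in 36% and 34% with GLK2, and it was in 4.78% of the 150 bp stretches before the start sites of all genes. Its centre lay 11.5 to 22.5 bp from the summits at LHCA1, 27.5 to 57.5 bp at LHCA2, 28.5 to 34.5 bp at LHCA3 and 2.5 to 44.5 bp at LHCA4. At LHCA4 the GLK1 summits were the ones beside the G-box, and the GLK2 summits lay between it and the GLK motif match nearer the start, as in the printed promoter. The weak members had the hexamer too. LHCA6 held it in the windows of both GLK2 libraries but not in that of GLK1, and LHCA5 in its single window, where it lies past the coding start. The 4 windows a gene can have overlap and share their sequence, so these counts stand for 6 loci, and a match is no evidence of which protein is bound.

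The I-box hexamer GATAAG, another element known from light-responsive plant promoters and also searched after seeing the summits, was less regular. It was in all windows of LHCA2 and LHCA3, in the GLK2 but not the GLK1 windows of LHCA4 and in none of LHCA1, LHCA5 and LHCA6. It was in 10.9% and 11.2% of all GLK1 windows and 11.6% and 11.8% of all GLK2 windows. Among the 100 strongest windows of a list it was in 29% and 35% with GLK1 and in 39% in both GLK2 lists.

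The LHCA genes were set beside 3 lists of genes of related function: 8 genes of the major photosystem II antenna (LHCB1 and LHCB2), 7 other LHCB genes (LHCB3, 3 LHCB4 genes, LHCB5, LHCB6 and AT1G76570), and 12 nuclear genes of photosystem I core subunits. A highest summit among the 100 strongest in every list was found at 4 of 6 LHCA genes, 5 of 8 major antenna genes, 5 of 7 other LHCB genes and 9 of 12 core genes, with the 0.306% of all genes as background. LHB1B1 and LHB1B2, both LHCB1 genes, were counted on the same summit, 10 to 28 bp upstream of LHB1B1 and 1011 to 1029 bp upstream of LHB1B2. With that summit counted once, a choice made after seeing the data, 4 of 7 major antenna genes remained, at the same median fold changes. The median fold change over the 6 LHCA genes was 48.9 and 37.9 with GLK1 and 45.7 and 41.9 with GLK2. Over the major antenna genes it was 73.8 and 56.0 with GLK1 and 44.4 and 38.7 with GLK2, over the other LHCB genes 45.8 and 36.5 with GLK1 and 28.5 and 32.1 with GLK2, and over the core genes 62.0 and 51.5 with GLK1 and 37.2 and 34.7 with GLK2. In the GLK2 lists the LHCA median was the highest of the 4, whereas in the GLK1 lists those of the major antenna and the core genes were above it.

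Each list had its own extremes. CAB1 (AT1G29930), an LHCB1 gene, had the strongest summit of all 4 Arabidopsis lists, with 210 and 181 for GLK1 and 93.6 and 88.6 for GLK2. Of the core genes PSAL (AT4G12800), a subunit needed for photosystem I trimers in cyanobacteria, was highest, with 147 and 133 for GLK1 and 77.8 and 80.9 for GLK2, and PSAD-1 (AT4G02770), which helps to dock ferredoxin, was lowest, with 21.7 and 16.9 for GLK1 and 23.4 and 23.1 for GLK2. Of the other LHCB genes LHCB6 (AT1G15820) was highest, with 81.8 and 76.7 for GLK1 and 47.3 and 45.0 for GLK2. The lowest was AT1G76570, with no summit for GLK1 and 1.84 and 1.66 for GLK2. CAB3 (AT1G29910) was the lowest major antenna gene, with 23.9 and 21.4 for GLK1 and 25.8 and 26.8 for GLK2. CAB1, CAB2 and CAB3 are close copies that lie together, and the authors' filter on mapping quality removes reads that fit several of them, so their values are uncertain.

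**Figure D3:**
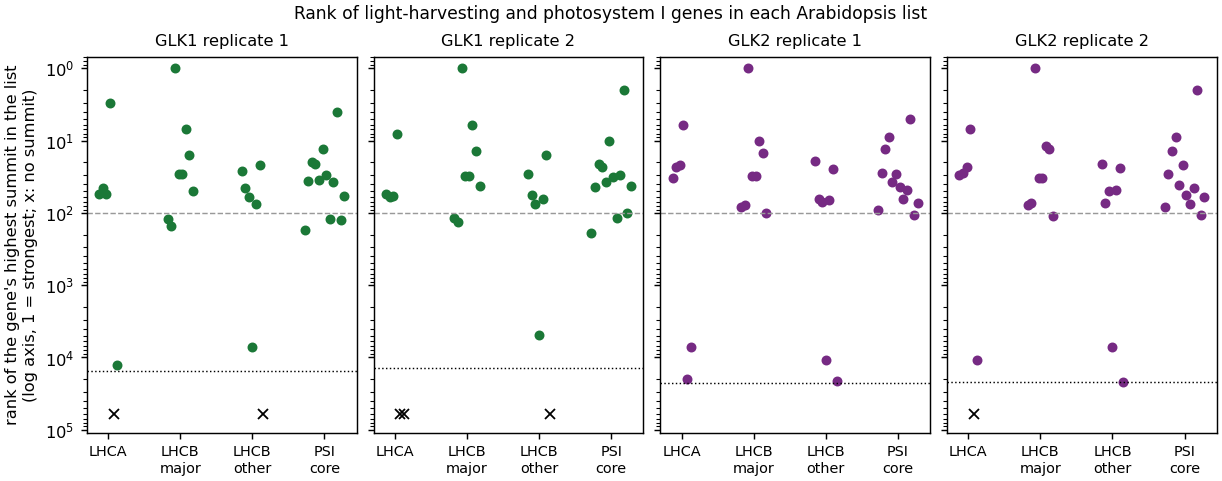
Rank by fold change of the highest summit of each LHCA gene and of each gene of 3 related lists, 1 panel per Arabidopsis library (log axis, 1 is the strongest, dashed line at rank 100, dotted line at the length of the list, crosses for genes without a summit). LHCA1 to LHCA4 lie among the 100 strongest in each panel with LHCA4 at ranks 3, 8, 6 and 7, and LHCA5, LHCA6 and AT1G76570 lie far below or have no summit.

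The same motifs were counted in the windows of the related lists. The G-box was singled out after it had been seen at LHCA1 to LHCA4, so its high share there is a description and was not tested against the other lists. It was in 19 of 20 LHCA windows, against 4 of 32 windows of the major antenna genes, none of 26 of the other LHCB genes and 16 of 48 of the core genes. RGATTYY was in 13 of 20 LHCA windows, 30 of 32 of the major antenna genes, 13 of 26 of the other LHCB genes and 32 of 48 of the core genes. With the summit shared by LHB1B1 and LHB1B2 counted once, the major antenna genes had the G-box in 4 of 28 windows and RGATTYY in 26 of 28. The I-box was in 10 of 20 LHCA windows, 0 of 32 of the major antenna genes, 11 of 26 of the other LHCB genes and 24 of 48 of the core genes. By genes with a summit in all 4 libraries, the G-box was present throughout at 4 of 4 LHCA genes, 1 of 8, 0 of 6 and 4 of 12 of the others.

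The 5 genes with the most similar values, by the distance of their log2 fold changes in the 4 libraries from the median profile of LHCA1 to LHCA4 (49.9 and 38.9 with GLK1, 50.5 and 44.2 with GLK2), were taken from the 6313 genes with a summit in all 4. The nearest was AT1G09157, which has no symbol in the annotation, with 50.7 and 41.8 for GLK1 and 53.9 and 43.9 for GLK2. It was followed by PORB (AT4G27440), an enzyme of chlorophyll synthesis, with 49.8 and 45.9 for GLK1 and 49.1 and 47.0 for GLK2. The others were PSAD-2 (AT1G03130), the second gene of the ferredoxin-docking subunit, CIL (AT4G25990) and FED A (AT1G60950), a leaf ferredoxin, which accepts electrons from photosystem I. Their distances were 0.14 to 0.44 on the log2 scale.

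Whether GLK1 and GLK2 differed in strength was tested over the 8827 Arabidopsis regions that had a summit in all 4 libraries, with limma on log2 fold changes centred on each library's median. With a Benjamini-Hochberg adjusted p under 0.05, 680 regions (7.7%) were higher with GLK1 and 308 (3.49%) with GLK2. LHCA4 was higher with GLK1, by 0.77 ± 0.19 on the log2 scale (SE), or 1.70-fold (limma, adjusted p = 0.0121). The GLK1 fold changes, 147 and 102, lay above both GLK2 fold changes, 74.6 and 70.2, while the ranks, 3 and 8 against 6 and 7, overlapped. The difference was 0.08 ± 0.19 at LHCA1, -0.07 ± 0.19 at LHCA2 and -0.15 ± 0.19 at LHCA3 (SE), with limma adjusted p values of 0.831, 0.867 and 0.666. LHCA5 and LHCA6 lacked a summit in at least 1 library and were not in this fit.

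The call at LHCA4 depended on how the lists were scaled. It was also lost in some fits with a replicate left out. There 1 TF has a single library, and the SE was 0.22 to 0.27 against 0.19. With median centring, of the 120 regions with a geometric mean fold change of at least 20, 55 were called higher with GLK1 and 0 with GLK2, and their median difference was 0.54, with 77 of them below LHCA4. With quantile normalization 17 of the same 120 were called higher with GLK1 and 13 with GLK2, and their median was -0.02. Of these 120 regions 28, 18 and 12 were below LHCA1, LHCA2 and LHCA3 with median centring. Quantile normalization, which gives all 4 libraries 1 distribution, left LHCA4 at 0.06 (limma, adjusted p = 0.89) and put LHCA1, LHCA2 and LHCA3 at -0.44, -0.60 and -0.68, of which LHCA3 was called higher with GLK2 (adjusted p = 0.0295). Without GLK1 replicate 1 the difference at LHCA4 was 0.60 (adjusted p = 0.0817), without GLK2 replicate 1 it was 0.78 (0.0557) and without GLK2 replicate 2 it was 0.75 (0.0708). With summed fold changes, where no region was called, it was 0.77 (0.172), and over all alternatives the adjusted p at LHCA4 ran between 0.00181 and 0.89.

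The difference between the TFs was then set beside that of the related lists. The median difference, GLK1 minus GLK2, was 0.0068 over the 4 LHCA regions, against 0.65 over 7 regions of the major antenna genes, 0.44 over 6 of the other LHCB genes and 0.52 over 12 of the core genes, and 0.03 over all regions. Higher with GLK1 were 1 of 4, 5 of 7, 2 of 6 and 6 of 12 regions, beside 7.7% of all regions, and none was called higher with GLK2, beside 3.49%. The listed regions are mostly strong, so the 120 regions with a geometric mean fold change of at least 20 are the closer background. Of those, 55 were called higher with GLK1 and 0 with GLK2, at a median difference of 0.54. With quantile normalization 0, 1, 0 and 0 regions were called higher with GLK1, and 1, 1, 0 and 1 higher with GLK2. Values near 0 as at LHCA1, LHCA2 and LHCA3 were also found in the related lists, where PSAD-1 (-0.27) and CAB3 (-0.21) lay below every LHCA region and PSAH2 was at -0.13, and LHCA4 (0.77) was above each list's median. Under quantile normalization the medians were -0.52 for LHCA and 0, 0.012 and 0.0017 for the other lists. Under no centring they were -0.00057, 0.64, 0.43 and 0.51, but leaving out centring shifts all regions alike and cannot reorder the lists. The LHCA median was the lowest with median centring and with quantile normalization, while the sign of the differences was not fixed. The difference between the lists itself was not tested.

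**Figure D4:**
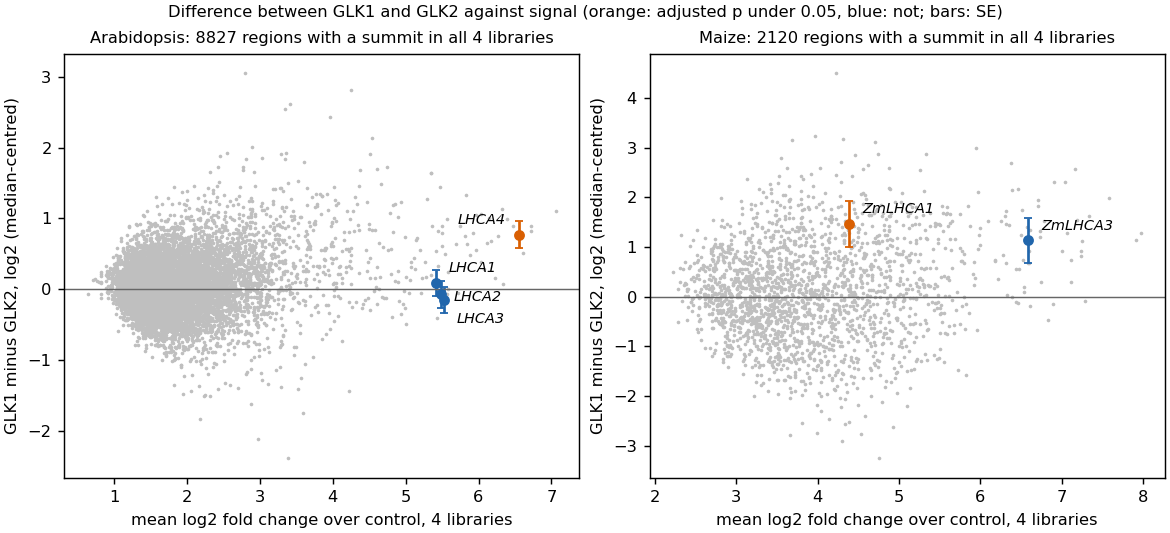
GLK1 minus GLK2 in log2 fold change, median-centred, against the mean log2 fold change of the 4 libraries, for all regions with a summit in all 4 libraries of Arabidopsis (left, 8827 regions) and maize (right, 2120 regions), with the LHCA regions in orange (adjusted p under 0.05) or blue (not) and their SE as bars. LHCA4 (0.77) lies among the strong regions that are mostly above 0, LHCA1, LHCA2 and LHCA3 lie near 0 in the lower part of them, and both maize loci lie above 0.

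In maize, summits within 2 kb of 2 given positions were taken (RefGen_v4 coordinates of the files), and each locus had exactly 1 in each of the 4 libraries. Both positions are themselves summits of GLK1 replicate 1, so a summit in that library was fixed in advance. The maize lists held 7246 and 5224 summits for GLK1 and 13841 and 6778 for GLK2, and the median fold change was 7.87 and 7.02 (GLK1) and 7.85 and 7.37 (GLK2). Of these summits 663 and 618 (GLK1) and 29 and 0 (GLK2) were mitochondrial. Fold changes of the 2 species are not on a common scale, so loci are compared by rank within a list. No maize gene model was used here, so the distance to a start site is not given.

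ZmLHCA3 had its summit on chromosome 9 at 105957393 and 105957388 with GLK1, and at 105957334 and 105957373 with GLK2. Its fold change was 113 and 132 with GLK1, and 96.4 and 59.7 with GLK2. These values ranked 61 of 7246 and 27 of 5224 with GLK1, and 80 of 13841 and 57 of 6778 with GLK2, above 99.2% and 99.5% of the GLK1 summits and 99.4% and 99.2% of the GLK2 summits. Both GLK1 fold changes were above both GLK2 fold changes, while the shares of weaker summits overlapped. The TFs lay 37 bp apart, within the 39 bp between the GLK2 replicates.

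ZmLHCA1 had its summit on chromosome 5 at 87654784 and 87654761 with GLK1, and at 87654776 and 87654773 with GLK2. Its fold change was 26.0 and 33.9 with GLK1, and 16.0 and 13.7 with GLK2. These values ranked 1016 and 366 with GLK1, and 2925 and 1426 with GLK2, above 86.0% and 93.0% of the GLK1 summits and 78.8% and 79.0% of the GLK2 summits. Among nuclear summits alone they ranked 636 of 6497 and 208 of 4533 with GLK1, and 2888 of 13698 and 1397 of 6700 with GLK2. The locus was thus well above the median summit in every library but outside the 100 strongest, where Arabidopsis LHCA1 stood. In all 4 maize libraries ZmLHCA1 was below ZmLHCA3, whereas Arabidopsis LHCA1 and LHCA3 were alike.

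Of 2120 nuclear maize regions with a summit in all 4 libraries, 285 (13.4%) were called higher with GLK1 and 199 (9.39%) with GLK2. ZmLHCA1 was higher with GLK1, by 1.46 ± 0.46 on the log2 scale (SE), or 2.74-fold (limma, adjusted p = 0.0159). ZmLHCA3 differed by 1.13 ± 0.46 (SE), or 2.19-fold, and did not pass (limma, adjusted p = 0.062). The call at ZmLHCA1 was lost without centring (1.01, adjusted p = 0.408), where the median region was at -0.39, and with quantile normalization (1.37, adjusted p = 0.0518). It was also lost without GLK1 replicate 2 (0.97, adjusted p = 0.114), without GLK2 replicate 1 (1.15, 0.333) or without GLK2 replicate 2 (1.77, 0.0803), and without GLK1 replicate 1 ZmLHCA3 was called as well (1.53, 0.013). Over all alternatives the adjusted p at ZmLHCA1 ran between 0.00117 and 0.408. In the fits with a replicate left out 1 TF has a single library, and the SE at ZmLHCA1 was 0.48 to 0.66 against 0.46. Both loci were placed by a GLK1 summit, which the test does not account for.

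**Figure D5:**
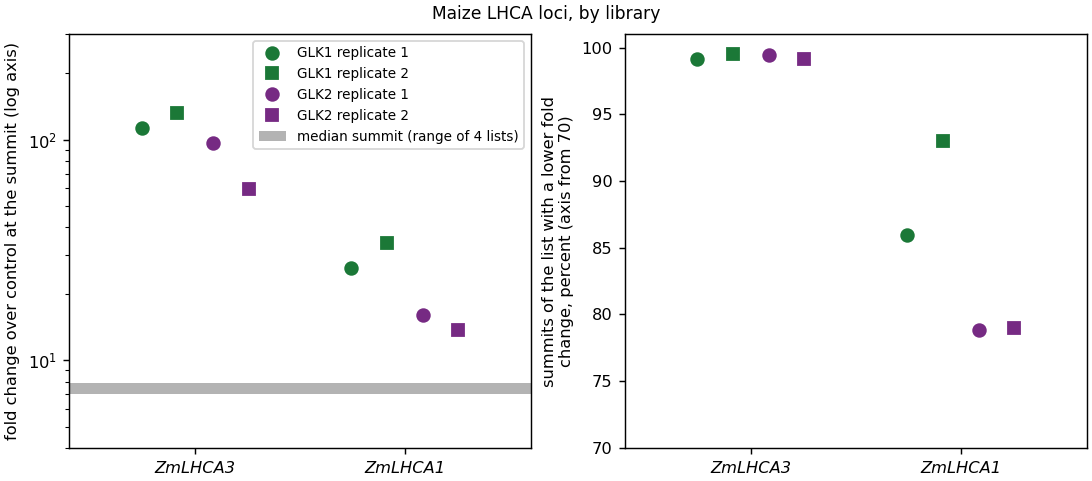
Enrichment (fold change over control) at the summit of ZmLHCA3 and ZmLHCA1 (left, log axis, grey band for the range of the median summit over the 4 lists) and the percent of the list's summits with a lower fold change (right, axis from 70), 1 point per library. ZmLHCA3 lies above 99% of the summits in each library, and ZmLHCA1 lies above 86.0% and 93.0% with GLK1 and above 78.8% and 79.0% with GLK2.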

How the data were processed

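The data are deposited peak lists, 1 for each of 20 ChIP-seq libraries. Per the labels and the methods, the authors mapped reads with Bowtie2 2.3.2 to TAIR10 or B73 RefGen_v4, used SAMtools to drop poorly mapped and duplicate reads, and took summits from MACS2 2.2.1. The control is not identified in the sources used here. The deposited value of a summit is a ratio, the fold change over the control, and the authors also give −log10 p and −log10 q values. The 12 libraries of tobacco, tomato and rice were not used.

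Summit positions were counted from 1. Genes are the RefSeq annotation of the TAIR10 chromosomes, whose lengths no peak exceeds, and all 6 members and all genes of the 3 lists matched. No maize genome was used. Ranks are by fold change within a list. Overlapping 150 bp windows of the 4 lists of a species were merged, and regions with a summit in all 4 were tested with limma 3.58.1 (R 4.3.3) on median-centred log2 fold changes of the deposited ratios, keeping the highest per library, in maize on nuclear chromosomes only. The fit was tested on simulated data, with normal noise and known changes added at random regions. These data held no shift with signal strength, so the simulation does not bear on the choice of scaling. Requiring a summit in all 4 libraries leaves out regions bound by 1 TF alone. Other steps used Python 3.11.15. An exact permutation test of 2 against 2 libraries cannot go below p = 0.333, so none was run for single loci.

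Named genes are all members, the highest and lowest gene of each list, the 5 most similar genes and neighbours within 1.5 kb. The members and lists were chosen with earlier results of these data known. The limma p-values measure a difference against the spread between the 2 replicates of a TF. That spread is drawn towards the one shared by all regions, with a weight of 19.1 degrees of freedom in Arabidopsis and 86.1 in maize. The p-value and SE at a locus therefore rest mainly on all regions and not on its own replicates. Without centring LHCA1 and LHCA4 had the same SE, 0.23. Alternatives were other windows, thresholds of 5 on fold change and −log10 q, −log10 q as the strength, other scalings, overlaps, region values and motifs, a replicate block and each replicate left out.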

Additional observations from a re-analysis of the deposited data

How the results depend on the processing

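With summits of the 1.5 kb upstream alone, 2 genes (LHCA2 and LHCA4) had a summit in all 4 Arabidopsis libraries, and the median percentile over the 6 genes was 0 for GLK1 and 37.1 for GLK2, since the highest summits of LHCA1, LHCA2 and LHCA3 lie inside the gene. The main percentiles were 99.6 for GLK1 and 99.9 for GLK2. They were 97.2 and 98.5 with a minimum of 5 on fold change and −log10 q, 99.5 and 99.8 with 1 summit per called region, and 99.6 to 99.7 for GLK1 and 99.9 for GLK2 with a replicate left out. The number of LHCA regions called, 1 in Arabidopsis and 1 in maize, was 0 in Arabidopsis with summed fold changes, 0 in maize with quantile normalization or no centring, and 0 to 1 in Arabidopsis and 0 to 2 in maize with a replicate left out. Under quantile normalization the called Arabidopsis region was LHCA3 instead of LHCA4. The difference at LHCA1 turned to -0.44 with quantile normalization and -0.10 with the minimum of 5, and that at LHCA2 ranged from -0.19 to 0.054 with a replicate left out.

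Arabidopsis regions higher with GLK1 and with GLK2 numbered 680 and 308. They numbered 425 and 362 with quantile normalization, so that 54.0% of the calls were higher with GLK1 in place of 68.8%, 243 and 169 (59.0%) with the minimum of 5, where 1034 regions were tested, and 0 and 0 with summed fold changes, where 1509 regions had an unadjusted limma p under 0.05. With a replicate left out they numbered 373 to 684 and 139 to 356. In maize the counts were 285 and 199. They were 179 and 183 with quantile normalization, 19 and 63 with no centring (23.2% in place of 58.9%), 230 and 122 with summed fold changes, and 45 to 333 and 23 to 263 with a replicate left out. The cause of these changes was not tested.

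ZmLHCA3 was at percentile 99.3 with both TFs and at 99.0 with the minimum of 5. ZmLHCA1 was at 78.9 with GLK2, and at 79.0 on nuclear chromosomes, 80.1 by −log10 q and 69.7 with the minimum of 5. With GLK1 ZmLHCA1 was at 89.5, and at 92.8 on nuclear chromosomes, 88.9 by −log10 q and 84.7 with the minimum of 5. Of the 20 LHCA windows 13 held RGATTYY, against 18 with a 300 bp window, 17 with RGATT and any 2 bases, 5 with a 60 bp window and 0 with GATTCC. The median distance between the TFs at LHCA1 to LHCA4 was 13.5 bp, and 6.5 bp for the closest pair of summits. Upstream alone it was 21.8 bp over LHCA2 and LHCA4 only, with the weak upstream summit in place of the main one at LHCA2.

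The labels do not say whether a replicate number marks a shared batch. After median centring, the deviations of same-numbered libraries correlated with r = 0.037 over the Arabidopsis and 0.0041 over the maize regions. Centring removes any shift common to a whole library, so these correlations cannot exclude a shared batch. The fit with the replicate block called 715 and 343 regions in Arabidopsis and 290 and 205 in maize, with LHCA4 (adjusted p = 0.0113) and ZmLHCA1 (0.0137) called as before. Depth per library is not in the lists, so weak or absent summits, as at LHCA5 and LHCA6, cannot be read as absence of binding.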
